A study of Mus musculus with 12 samples.

Results

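Described here are 9 genes of mouse chromosome 7 whose RNA differed between Sirt2-deficient and wild-type CD4+ T cells, out of 23479 gene symbols counted. They were chosen by measured values, namely the contrast of the genotypes after 24 h of stimulation or before it (0 h). Those contrasts, with any p-value printed for them, are therefore descriptions of the choice and no test. All 9 passed a filter on low counts, Gm19897 only through its wild-type libraries. In the RefSeq table of assembly GRCm38.p6 the 9 follow each other along the chromosome as Igsf23, D930028M14Rik, Dedd2, Erf, Gm19897, Zfp82, Gramd1a, Gm10640 and Pepd. Unlike the other 8, Gm19897 does not lie away from Sirt2: its span lies inside that of Sirt2, with Sirt2 between Erf and Zfp82 in this order.

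Spleen CD4+ T cells came from Sirt2-/- mice (KO), with C57BL/6 given as strain background, and from C57BL/6J wild-type mice (WT). Cells were enriched by removing other cells, to a purity above 95% per the labels. RNA was taken directly after isolation or after culture for 24 h on a plate coated with 5 µg/ml of an antibody to CD3, the signalling part of the T cell receptor complex. The 4 groups of 3 libraries are KO 24 h, WT 24 h, KO 0 h and WT 0 h. No drug or second allele is named in the labels, and the ages of the mice, the part of Sirt2 removed and the strain of the cells in which the allele was made are not stated in the labels. These also do not say that replicates came from separate mice, and p-values therefore reflect only the spread among the libraries at hand, possibly a technical one. Fewer cells of a type and less RNA per cell cannot be told apart in such bulk samples.

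Genes on one chromosome are inherited together unless recombination parts them. A mouse line that carries a modified gene can therefore also carry neighbouring stretches of the strain in which the change was made, and variants there can raise or lower the RNA of a gene by a steady factor in any cell state. Counts per gene symbol do not show which allele a read came from, so whether such variants played a part here was not tested.

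The 9 genes have unlike roles. Pepd encodes prolidase, a peptidase that frees proline from dipeptides. Erf encodes a transcriptional repressor of the ETS family that ERK kinases hold out of the nucleus. Dedd2 encodes a nuclear protein with a death effector domain, a fold shared with adaptors of the cell death machinery. Zfp82 encodes a zinc finger protein of the KRAB class, whose members mostly silence chromatin. Gramd1a encodes Aster-A, which carries cholesterol from the plasma membrane to the endoplasmic reticulum. Igsf23 encodes a protein of the immunoglobulin superfamily. Gm10640, D930028M14Rik and Gm19897 are long noncoding RNA genes in the RefSeq table.

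Erf, Pepd and Gm10640 were the genes other than Gm19897 whose contrast passed the threshold of the rule at both times, so the 250 bases before their RefSeq starts are printed. RefSeq places them in GRCm38.p6 at chr7:25250759-25251008 on the minus strand for Erf, chr7:34912157-34912406 on the plus strand for Pepd and chr7:31162108-31162357 on the plus strand for Gm10640. These are positions of the RefSeq reference and not of the count tables. Capitals mark GGGCGG, a box bound by SP1-type factors, on either strand.
Erf: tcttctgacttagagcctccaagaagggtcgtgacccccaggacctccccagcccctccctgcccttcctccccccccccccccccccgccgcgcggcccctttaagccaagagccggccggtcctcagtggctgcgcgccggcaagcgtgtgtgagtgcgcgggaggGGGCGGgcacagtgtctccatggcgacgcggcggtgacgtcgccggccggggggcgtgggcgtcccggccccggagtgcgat
Pepd: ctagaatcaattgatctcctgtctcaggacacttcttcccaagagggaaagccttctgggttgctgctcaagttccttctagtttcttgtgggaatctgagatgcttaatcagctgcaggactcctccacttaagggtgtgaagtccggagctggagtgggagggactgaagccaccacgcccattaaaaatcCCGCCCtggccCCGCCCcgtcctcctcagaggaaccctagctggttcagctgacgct
Gm10640: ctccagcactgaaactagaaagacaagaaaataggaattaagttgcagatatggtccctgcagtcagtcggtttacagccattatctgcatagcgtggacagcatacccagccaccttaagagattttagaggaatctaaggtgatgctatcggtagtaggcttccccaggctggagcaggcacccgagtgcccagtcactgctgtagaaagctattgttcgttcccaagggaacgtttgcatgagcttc
The Erf window held 27 CpG pairs and 1 GGGCGG box, the Pepd window 6 CpG pairs and 2 boxes, and the Gm10640 window 6 CpG pairs and no box. The median over all 32851 promoter windows of the same length was 6 CpG pairs. All 9 genes matched the promoter table, Igsf23 with a pair of windows. GGGCGG stood in the windows of 5 of the 9 genes (Dedd2, Erf, Zfp82, Gramd1a and Pepd), against 32.7% of all windows. CCAAT stood in 1, that of Gramd1a, against 33.8% of all windows. Searched on both strands, TATAAA (12.4% of all windows), CCGGAAG, an ETS motif (6.91%), and CACGTG, an E-box (6.02%), stood in 0 of the 9. No matches overlapped each other. All of these letters are those of the C57BL/6J reference.

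Libraries held 3.63 to 10.0 megareads in genes, 3.63 to 5.33 in KO 24 h, 4.68 to 8.02 in WT 24 h, 5.78 to 10.0 in KO 0 h and 6.40 to 8.77 in WT 0 h. Levels are CPM, read counts scaled to library size and TMM factors. They are not divided by length, so they compare libraries and not genes. Sirt2, the targeted gene, had 9.52, 10.5 and 19.7 CPM in KO 24 h against 62.3, 62.9 and 76.3 CPM in WT 24 h. At 0 h it had 12.1, 9.04 and 16.2 CPM in KO 0 h against 70.5, 67.9 and 85.4 CPM in WT 0 h. Every KO library was thus below every WT library. The 7 CD4 T cell markers summed to 2610 to 3000 CPM in KO 24 h, 2740 to 2940 CPM in WT 24 h, 5810 to 6620 CPM in KO 0 h and 5560 to 6030 CPM in WT 0 h, and 0 of them passed between genotypes.

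**Figure D1:**
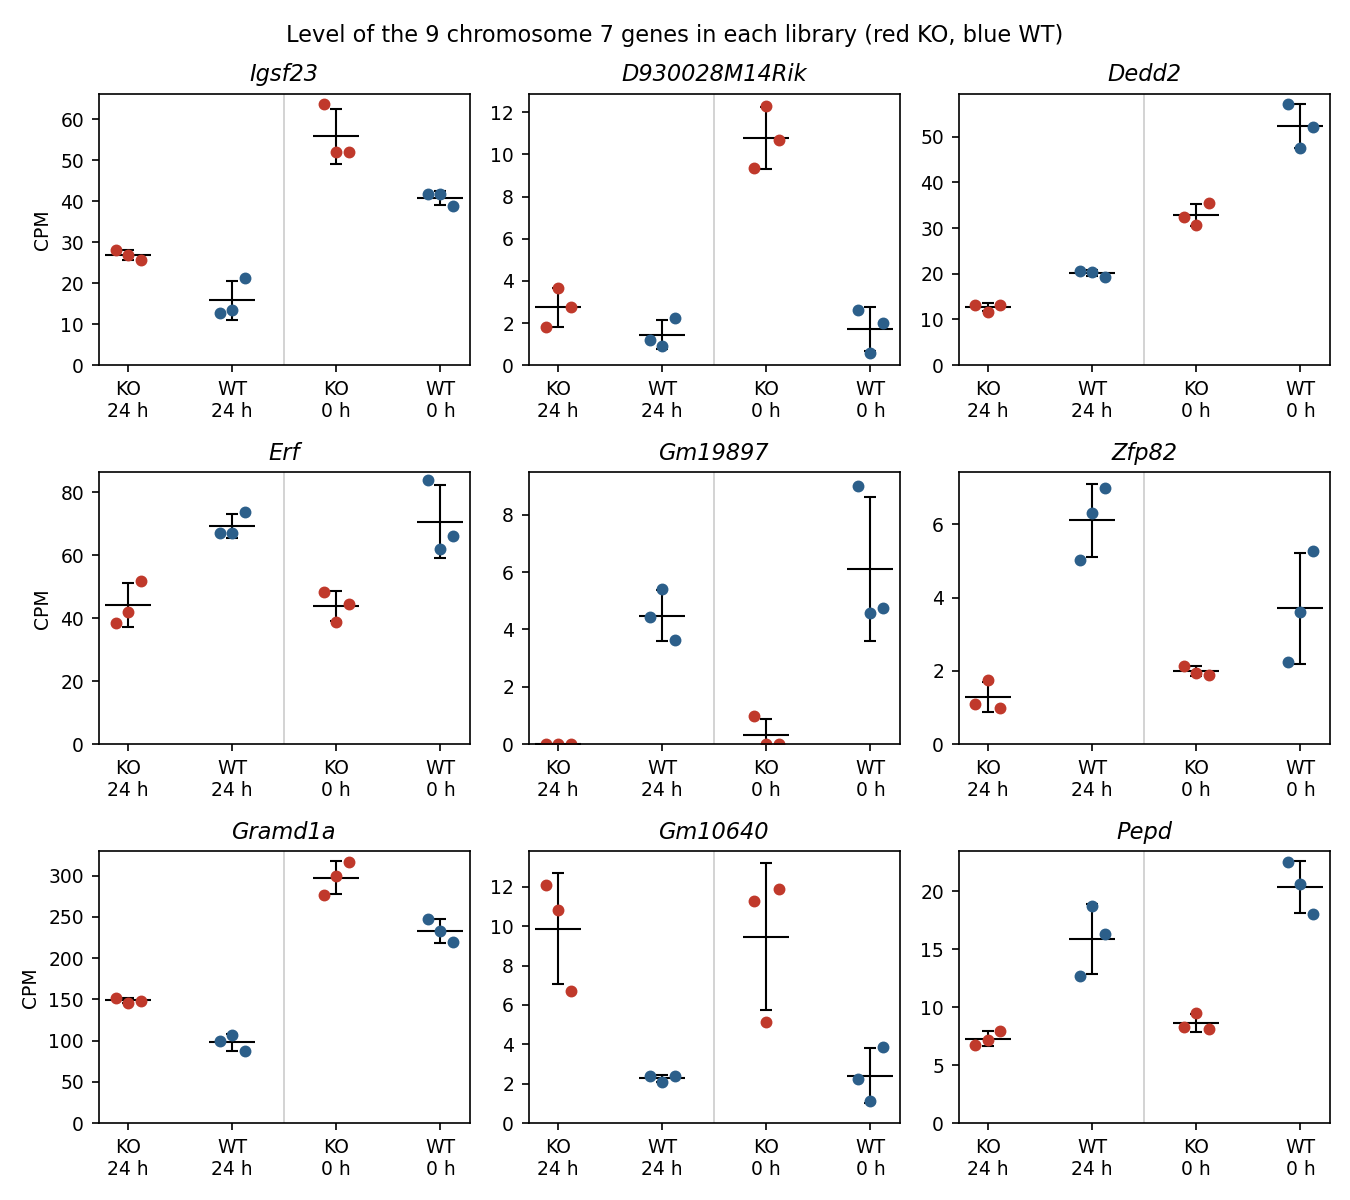
Level of each of the 9 genes in CPM (y axis, from 0) in the 12 libraries, grouped along the x axis as KO 24 h, WT 24 h, KO 0 h and WT 0 h. Points are libraries and black bars the mean ± SD (n = 3). Erf, Pepd and Gm10640 hold about the same level at both times in each genotype, Dedd2, Gramd1a and Igsf23 are lower at 24 h in both genotypes, and Gm19897 has no read in KO 24 h.

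Pepd RNA was less abundant in KO cells at both times, by about the same factor. The KO 24 h libraries had 6.77, 7.16 and 7.96 CPM, against 12.7, 18.7 and 16.3 CPM in WT 24 h. At 0 h the KO libraries had 8.26, 9.52 and 8.10 CPM, against 22.5, 20.6 and 18.0 CPM in WT. No KO library reached any WT library, and the KO mean was 45.9% of the WT mean at 24 h and 42.3% at 0 h. The log2 fold change of KO over WT was -1.14 (SE 0.233) at 24 h and -1.24 (SE 0.216) at 0 h. The 24 h value was 0.10 above the 0 h value, with a 95% interval of this difference from -0.54 to 0.73.

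Erf was lower in KO by a smaller factor, also alike at both times. Its level was 38.6, 42.1 and 52.0 CPM in KO 24 h, against 67.1, 67.2 and 73.8 CPM in WT 24 h. Before stimulation it was 48.2, 38.7 and 44.4 CPM in KO, against 84.0, 62.1 and 66.1 CPM in WT. The groups did not overlap at either time. The KO mean stood at 63.8% of WT at 24 h and at 61.9% at 0 h, with log2 fold changes of -0.66 (SE 0.130) and -0.68 (SE 0.126). The difference between the times was 0.02 on the log2 scale, with a 95% interval from -0.34 to 0.39.

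Dedd2, a close neighbour of Erf, kept its ratio of KO to WT while its averaged level fell on stimulation. There were 13.2, 11.7 and 13.2 CPM in KO 24 h, against 20.7, 20.4 and 19.4 CPM in WT 24 h. At 0 h KO libraries had 32.4, 30.7 and 35.6 CPM, against 57.2, 47.5 and 52.2 CPM in WT. KO libraries were below WT libraries at each time, and the KO mean was 62.9% of WT at 24 h and 62.9% at 0 h. The log2 fold change was -0.67 at 24 h (SE 0.169) and -0.67 at 0 h (SE 0.140). Their difference had a 95% interval from -0.44 to 0.44. In RefSeq the span of Dedd2 overlaps that of Zfp526 in part. In the GENCODE vM21 annotation exons of Dedd2 overlap those of 4933430L12Rik by 238 bases on the opposite strand. Without a stated strand setting such reads are uncertain. Zfp526 had log2 fold changes of -0.42 at 24 h and -0.17 at 0 h and did not pass at either time.

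Zfp82 was lower in KO as well, but at low counts of 4 to 55 reads per library. KO 24 h libraries had 1.10, 1.75 and 0.995 CPM, against 5.02, 6.31 and 6.98 CPM in WT 24 h. KO 0 h libraries had 2.14, 1.94 and 1.88 CPM, against 2.25, 3.60 and 5.26 CPM in WT 0 h. The groups stood apart at 24 h, while at 0 h the highest KO library lay just under the lowest WT library. The KO mean was 21.0% of WT at 24 h and 53.7% at 0 h (log2 -2.22, SE 0.499, and log2 -0.90, SE 0.451). The difference between the times was -1.32, with a 95% interval from -2.67 to 0.04. Zinc finger genes of this class resemble each other in sequence, and reads that align to several places were not counted, so its level is uncertain. In the GENCODE vM21 annotation exons of Zfp82 also overlap those of Gm26920 by 2064 bases on the same strand.

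Gramd1a was higher in KO. It had 152, 146 and 148 CPM in KO 24 h, against 99.9, 107 and 86.9 CPM in WT 24 h. At 0 h there were 277, 299 and 317 CPM in KO, against 248, 233 and 219 CPM in WT. All KO libraries were above all WT libraries of the same time. The KO mean was 152% of WT at 24 h and 128% at 0 h, with log2 fold changes of 0.60 (SE 0.0923) and 0.35 (SE 0.087). The difference between the times was 0.25, with a standard error of 0.127 and a 95% interval from 0.00 to 0.51, whose lower bound lay just below 0. In the GENCODE vM21 annotation G630030J09Rik lies inside the span of Gramd1a on the opposite strand, with 420 exon bases shared. Without a stated strand setting such reads are uncertain.

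Gm10640, the tested gene next to Gramd1a, was higher in KO by a larger factor. Its level was 12.1, 10.8 and 6.72 CPM in KO 24 h, against 2.41, 2.07 and 2.37 CPM in WT 24 h. At 0 h it was 11.3, 5.16 and 11.9 CPM in KO, against 2.25, 1.11 and 3.88 CPM in WT. KO and WT did not overlap at either time, although KO replicate 3 at 24 h and KO replicate 2 at 0 h were well below the other KO libraries. The KO mean was 433% of WT at 24 h and 391% at 0 h (log2 2.13, SE 0.395, and log2 1.94, SE 0.384). The difference of 0.19 had a 95% interval from -0.92 to 1.30. Exons of the 2 genes overlap by 3 bases on opposite strands in the GENCODE vM21 annotation.

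Igsf23 was also higher in KO. KO 24 h libraries had 28.0, 26.9 and 25.6 CPM, against 12.7, 13.4 and 21.3 CPM in WT 24 h. KO 0 h libraries had 63.7, 52.0 and 52.0 CPM, against 41.7, 41.8 and 38.8 CPM in WT 0 h. The groups did not overlap, although WT replicate 3 at 24 h came closer to KO than the other WT libraries. The KO mean was 170% of WT at 24 h and 137% at 0 h (log2 0.76, SE 0.169, and log2 0.46, SE 0.146). The difference between the times was 0.30, with a 95% interval from -0.15 to 0.75.

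Among the 8 genes other than Gm19897, D930028M14Rik had the most unequal pair of genotype differences. The KO 24 h libraries held 1.83, 3.67 and 2.74 CPM, against 1.21, 0.919 and 2.23 CPM in WT 24 h. At 0 h there were 9.33, 12.3 and 10.7 CPM in KO, against 2.6, 0.554 and 2.00 CPM in WT. The genotypes overlapped at 24 h and stood far apart at 0 h, where the KO mean was 627% of the WT mean, against 189% at 24 h. The log2 fold change was 0.92 (SE 0.503) at 24 h and 2.66 (SE 0.439) at 0 h. Their difference of -1.74 had a 95% interval from -3.08 to -0.39. These values rest on 42 reads in KO 24 h, 30 in WT 24 h, 220 in KO 0 h and 35 in WT 0 h. The gene lies inside the span of Pou2f2 on the opposite strand, and without a stated strand setting reads from introns of Pou2f2 cannot be told apart from its own. Pou2f2, which encodes the octamer factor OCT2 of lymphocytes, had log2 fold changes of -0.10 at 24 h and -0.02 at 0 h and did not pass. Sums of CD8 T cell and NK cell markers did not overlap between the genotypes at 0 h, a pattern that 12.4% of single tested genes showed. The 2 CD8 T cell markers summed to 30.8 to 35.8 CPM in KO 0 h and 17.3 to 18.5 CPM in WT 0 h, and the 3 NK cell markers to 19.8 to 30.1 CPM in KO 0 h and 14.1 to 18.9 CPM in WT 0 h. The 7 B cell markers overlapped, at 16.8 to 28.6 CPM in KO 0 h and 21.0 to 30.8 CPM in WT 0 h, as did the 6 myeloid markers in the tables, at 57.0 to 77.0 CPM in KO 0 h and 63.9 to 81.2 CPM in WT 0 h. The 4 erythroid markers were at 0 in all libraries. At 24 h the genotypes overlapped in all 4 sums. CD8 markers had 8.79 to 14.7 CPM in KO and 8.09 to 11.0 CPM in WT, and NK markers 0.732 to 0.995 CPM in KO and 0.201 to 1.72 CPM in WT. B cell markers had 2.93 to 7.22 CPM in KO and 4.48 to 7.03 CPM in WT, and myeloid markers 34.0 to 56.8 CPM in KO and 41.7 to 47.3 CPM in WT. Of these lists Cd8b1 (higher in KO) and Cd22 (lower in KO) passed at 0 h. Ms4a1, Pax5 and Klre1 were at 0 in KO 24 h. Megakaryocyte and platelet genes Pf4 and Ppbp summed to 0 to 0.402 CPM. The part of these cells in the 0 h values of D930028M14Rik, and of the other 8 genes, was not tested.

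Gm19897, inside the span of Sirt2, had few or no reads in KO. KO 24 h libraries had 0, 0 and 0 reads, against 22, 47 and 26 reads in WT 24 h, which corresponds to 4.42, 5.40 and 3.63 CPM. In KO 0 h the libraries had 9, 0 and 0 reads, against 52, 33 and 38 reads in WT 0 h, or 9.01, 4.57 and 4.76 CPM. All 9 reads of KO cells stood in replicate 1, the deepest library. With 3 reads over the group as the floor, Gm19897 was at least 23.1-fold lower in KO 24 h than in WT 24 h. This floor covers counting error only. At 0 h the KO mean was 5.26% of WT (log2 -3.83, SE 0.741). That value rests on KO replicate 1: without it no read was left in KO 0 h, and the fitted log2 fold change became -8.23, which depends on the prior count and is no bound. Leaving out other libraries gave -4.01 to -3.34. Exons of Sirt2 cover 2183 bases of its span, and this nearness sets it apart from the other 8 genes.

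**Figure D2:**
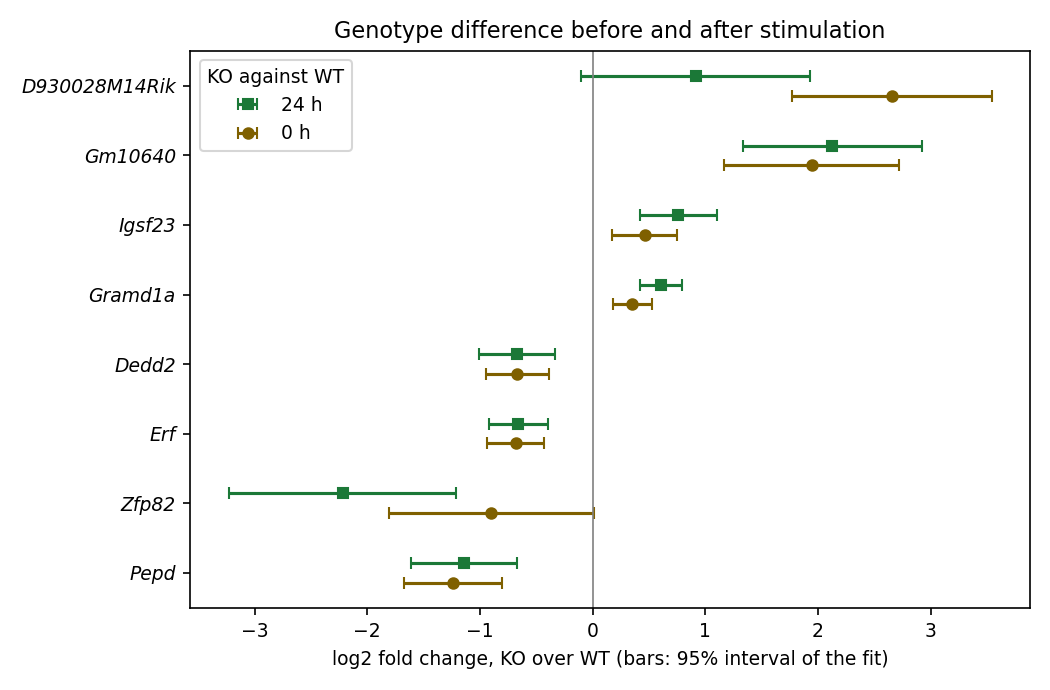
Log2 fold change of KO over WT (x axis) at 24 h (squares) and 0 h (circles) for the 8 genes other than Gm19897, which had no read in KO 24 h. Bars are 95% intervals of the fit. Both marks of each gene lie on the same side of 0, and those of Dedd2, Erf and Pepd nearly coincide, while those of D930028M14Rik differ by -1.74 (24 h minus 0 h).

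Of the 9 genes, 4 were higher in KO at both times and 5 lower, with no change of sign. Between the genotypes 3 passed as higher and 4 as lower at 24 h, against 0.182% and 0.0911% of the 10981 genes tested. At 0 h 2 passed as higher and 4 as lower, against 0.118% and 0.228% of genes tested. Passing at either time is the rule itself, which 0.519% of genes met, and 4 of the 9 passed at both in the same direction, against 0.1% of genes. KO and WT libraries did not overlap for 8 of the 9 at 24 h and for 9 at 0 h, against 12.9% and 12.4% of genes, and for 8 at both times, against 1.39%. As the contrasts chose the genes, these shares describe the choice. The threshold was an adjusted p below 0.05 (edgeR's quasi-likelihood test with Benjamini-Hochberg adjustment). Just inside it lay Igsf23, with an adjusted p of 0.0251 at 24 h, and Zfp82, with 0.0175. Nearest outside on chromosome 7 was Il4ra, with 0.0942 at 24 h and a log2 fold change of 0.32.

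Leaving out single libraries moved several of the 9 across that threshold (edgeR QL, BH-adjusted p throughout). The genotype contrasts chose the genes, and each refit shares most libraries with that choice. Staying inside the threshold is therefore a description and no support. Gramd1a, Gm10640 and Gm19897 stayed inside it at 24 h in all 12 refits, and D930028M14Rik, Gm19897 and Pepd did so at 0 h. At 24 h Pepd left it without KO replicate 1 or 2 or WT replicate 2 (p up to 0.131), and Erf without KO replicate 1 or 2 (up to 0.112). Zfp82 did so without KO replicate 1 or 3 or WT replicate 2 or 3 (up to 0.141), and Igsf23 without any KO 24 h library or WT replicate 1 or 2 (up to 0.294). At 0 h Dedd2 left it without KO replicate 1 or 2 or WT replicate 1 or 3 (up to 0.109), Erf without KO replicate 2 or WT replicate 1 (up to 0.0751), and Gm10640 without KO replicate 1 or 3 or WT replicate 2 (up to 0.0693). Gramd1a came inside it at 0 h without WT 24 h replicate 3 (0.0379). The number of the 9 that passed at 24 h was 3 without KO replicate 1 and 4 without KO replicate 2 or WT replicate 2 of that time, against 7 with all libraries. The direction of each of the 9 at each time was the same in all 12 refits.

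Whether the genotype difference changed with stimulation was asked across all genes by the interaction of genotype and time. It called 0.00911% of the genes tested, 1 of 10981, with edgeR's quasi-likelihood test and 1 with DESeq2, while 575 genes had an unadjusted p below 0.05. None of the 9 was that gene. In 10 of the 12 refits without a library the count was 0. For the 8 genes other than Gm19897 the median absolute difference between the times was 0.22 on the log2 scale, beside a median absolute difference of 0.171 over all genes. The intervals of 7 of these 8 included 0. Those intervals still allowed differences of up to 0.39 on the log2 scale for Erf, 0.44 for Dedd2 and 0.51 for Gramd1a, and of more for the other 4. Since the genotype contrast at one of the times chose some of the genes, their differences between the times are a description too.

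The change on stimulation averaged over KO and WT is a contrast the choice of genes did not use, although it is built from the same libraries. The changes within one genotype are not independent of the contrasts that chose the genes and are given with no test. On average, 4 of the 8 genes other than Gm19897 fell at 24 h against 0 h and 0 rose, where 27.8% of all tested genes fell and 26.5% rose. Dedd2 fell, at 24 h standing at 38.6% of its 0 h level in KO and at 38.6% in WT (averaged log2 -1.37, SE 0.110, edgeR QL, BH-adjusted p = 7.46e-15). Igsf23 fell, to 48.0% in KO and 38.8% in WT, which averaged to log2 -1.21 ± 0.112 (SE, edgeR QL, BH-adjusted p = 7.64e-13). Gramd1a fell, to 50.0% in KO and 41.9% in WT, which averaged to log2 -1.13 ± 0.0634 (SE, edgeR QL, BH-adjusted p = 6.41e-20). In these genes every 24 h library was below every 0 h library of its genotype.

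D930028M14Rik fell on average too, with a log2 change of -1.09 and an SE of 0.334 (edgeR QL, BH-adjusted p = 0.0051). Within genotypes it was -1.96 (SE 0.427) in KO and -0.22 (SE 0.513, 95% interval -1.25 to 0.82) in WT. The averaged fall thus came mostly from KO. The gene was chosen through its KO and WT values at 0 h, which both changes contain. The averaged change contains them as well, and its p does not speak for a fall in WT. The difference between the KO and WT changes is the one given above for the times. Erf did not pass, with a log2 change of -0.01 with a 95% interval from -0.19 to 0.17 (edgeR QL, BH-adjusted p = 0.931). Gm10640 did not pass either (log2 -0.02, interval -0.57 to 0.54, edgeR QL, BH-adjusted p = 0.966), nor did Zfp82 (log2 0.05, interval -0.63 to 0.73, edgeR QL, BH-adjusted p = 0.919) or Pepd (log2 -0.29, interval -0.61 to 0.03, edgeR QL, BH-adjusted p = 0.114). Gm19897 passed in this fit (edgeR QL, BH-adjusted p = 0.0238), but with 0 reads in KO 24 h and 9 in KO 0 h no fold is given. Without KO 0 h replicate 1, WT 0 h replicate 1, KO 24 h replicate 1 or KO 24 h replicate 2 it did not pass, with an adjusted p of up to 1. Within WT its log2 change was -0.43 (SE 0.482).

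**Figure D3:**
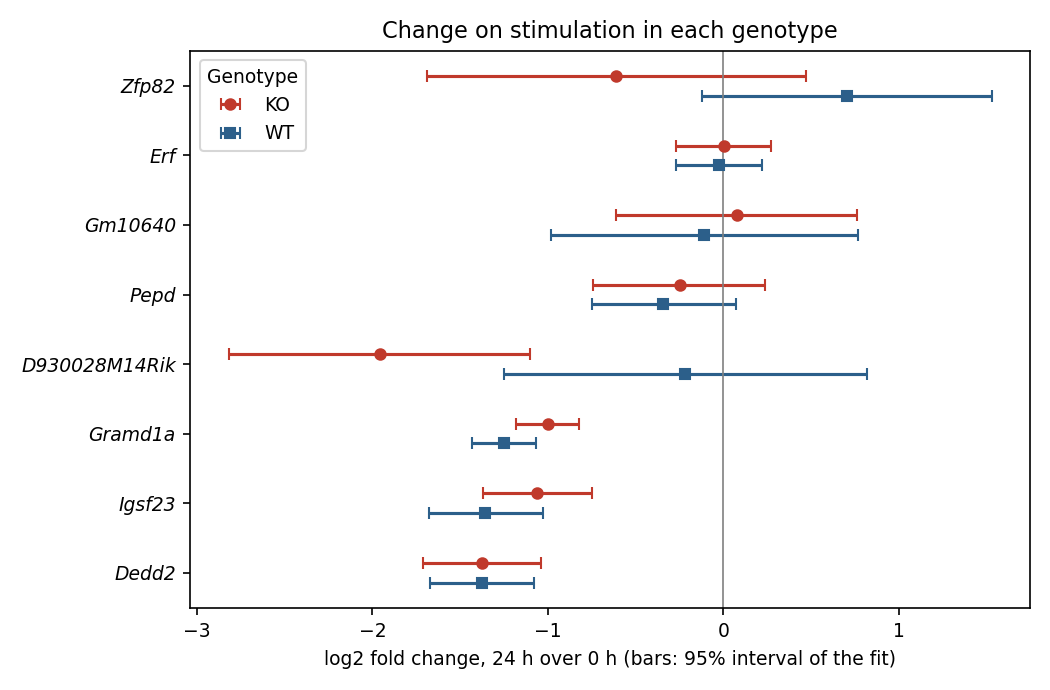
Log2 fold change of 24 h over 0 h (x axis) within KO (circles) and WT (squares) for the 8 genes other than Gm19897, ordered by the averaged change. Bars are 95% intervals of the fit. Dedd2, Igsf23 and Gramd1a lie between -1.37 and -1.0 in both genotypes, Erf at 0, and D930028M14Rik at -1.96 in KO against -0.22 in WT.

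Genes that passed between the genotypes were unevenly spread along the genome. Of 833 tested genes of chromosome 7, 20 passed at 24 h or 0 h, or 2.4%, against 37 of 10108 tested genes of the other chromosomes, or 0.366%. Single chromosomes other than 7 had 0% to 1.08%. Without a library, 16 to 20 genes passed on chromosome 7 and 17 to 41 on the others, the count on the others moving by over 1.5 times without KO 0 h replicate 3, KO 24 h replicate 3, WT 24 h replicate 1 or WT 24 h replicate 2. The stretch from Igsf23 to Pepd held 155 tested genes, 18.6% of those of chromosome 7, and 16 of the 20. Besides the 9 it held, among others, Sirt2, its near neighbours Fbxo17, Fbxo27 and Zfp36, and Nfkbid and Cd22. The 4 outside it were Arrdc4, Slco3a1, Pde2a and Utf1. The ends of the stretch were set by called genes, so its share is a description. Of the 11 genes that passed at both times in 1 direction 8 lay on chromosome 7.

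Between Sirt2 and each of the 8 genes other than Gm19897 lay many tested genes that did not pass. Igsf23 was parted from Sirt2 by 87 tested genes, D930028M14Rik by 62, Dedd2 by 61 and Erf by 57 on one side. On the other side Zfp82 was parted by 26, Gramd1a by 58, Gm10640 by 59 and Pepd by 65, while Gm19897 had none in between. Close together lie D930028M14Rik, Dedd2 next to it and Erf a few places on, with D930028M14Rik higher and the other pair lower in KO. Gramd1a and Gm10640 are next to each other and were both higher in KO.

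**Figure D4:**
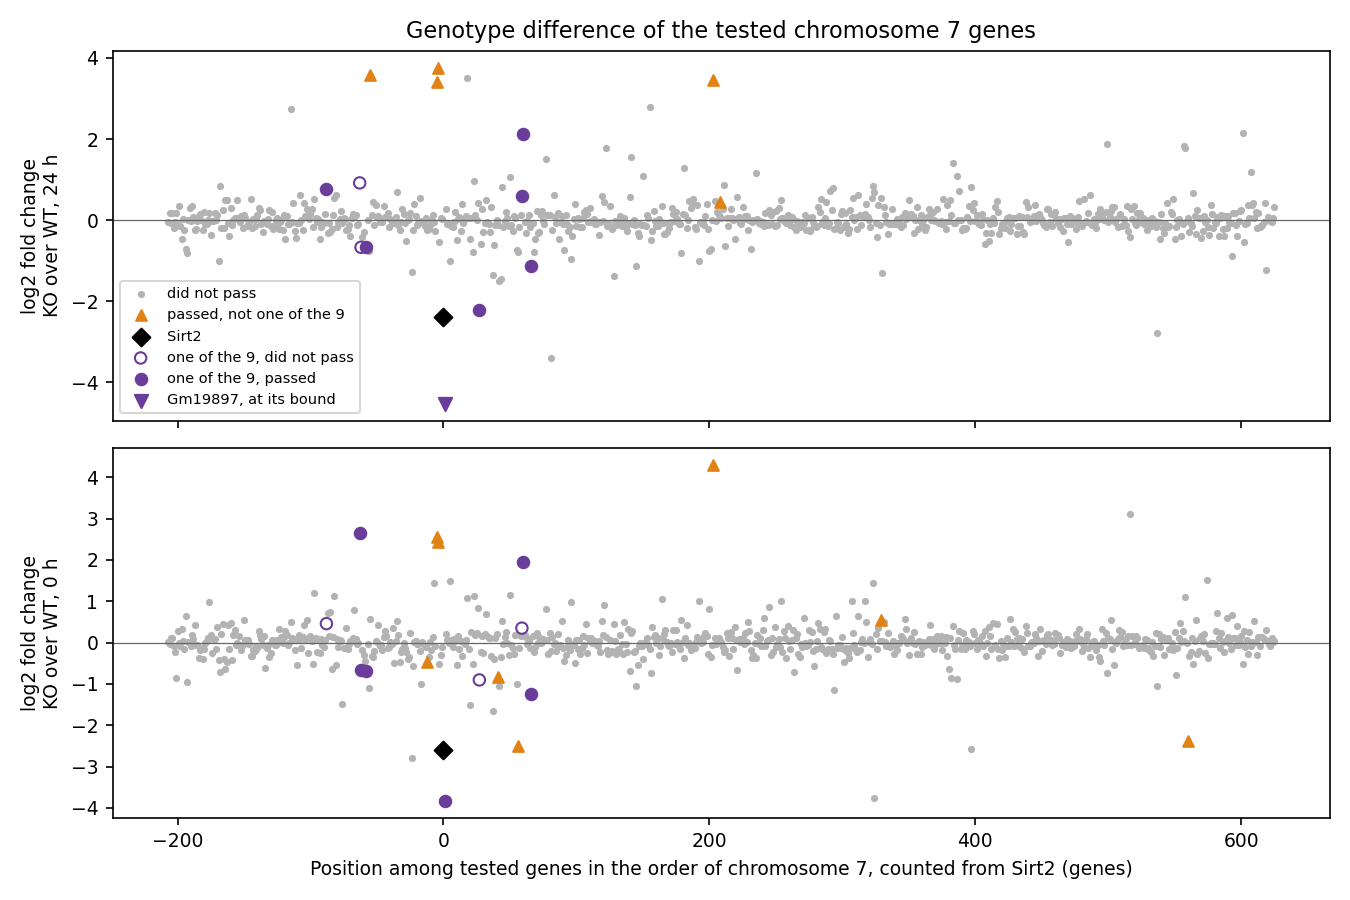
Log2 fold change of KO over WT (y axis) at 24 h (top) and 0 h (bottom) for the 833 tested genes of chromosome 7, placed by their order along it and counted from Sirt2 (x axis). Grey points did not pass, triangles passed and are not among the 9, filled purple points are those of the 9 that passed and open ones those that did not, the black diamond is Sirt2, and Gm19897 at 24 h stands at its bound. Of the 20 genes that passed at either time, 16 lie from 88 places before Sirt2 to 66 places after it. Values of genes with no read in a group depend on the prior count of the fit.

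The genes directly beside the 9 mostly did not differ beyond the threshold. Of the tested genes within 3 places of one of the 9, 37 were neither Sirt2 nor among the 9. At 24 h or 0 h 2 of these 37 passed, or 5.41%, a larger share than the 0.519% of all tested genes. Of these 2, Cd22, a gene for an inhibitory receptor of B cells, was lower in KO at 0 h (log2 -2.49, edgeR QL, BH-adjusted p = 0.0118). The median log2 fold change of the 37 was -0.077 at 24 h and -0.017 at 0 h, beside -0.01 and 0.004 over all tested genes. Beside Pepd, Lsm14a had -0.17 at 24 h and -0.13 at 0 h, and Cebpg -0.06 and 0.15. On the sides of Erf, Cic had 0.00 and -0.02, and the noncoding 9130221H12Rik -0.58 and -0.44, with all KO libraries below WT at 0 h and overlap at 24 h. Beside Gramd1a, Fxyd5 had 0.12 and 0.16. Gsk3a, between Dedd2 and Erf, had -0.29 and -0.30 with KO below WT in all libraries at both times, and none of these passed. KO and WT libraries did not overlap for 7 of the 37 at 24 h, or 18.9%, and for 5 at 0 h, or 13.5%, beside the 12.9% and 12.4% of all genes.

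Relatives of the coding genes by function or family were taken from lists drawn up with earlier results of these data known. Of these relatives 0 passed between the genotypes at 24 h or at 0 h, where 0.519% of all tested genes did. With so small an overall share, 0 in short lists says little about these families. Among 10 tested genes of proline and peptide metabolism, the pathway of Pepd, the median log2 fold change was 0.06 at 24 h and 0.03 at 0 h. The most abundant, the proline synthesis gene Aldh18a1, had -0.03 and 0.08, and P4ha1, a collagen prolyl hydroxylase subunit gene, -0.09 and -0.35. Over time 4 of the 10 rose and 1 fell, with Pycr1, the last step of proline synthesis, at a log2 change of 3.33 with an SE of 0.387 (edgeR QL, BH-adjusted p = 6.27e-11) and Aldh18a1 at 1.09 with an SE of 0.0738 (edgeR QL, BH-adjusted p = 4.31e-17).

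Among 12 ETS factor genes, the family of Erf, the medians were -0.03 at 24 h and 0.04 at 0 h, and the range over both times was -0.22 to 0.14. Etv3, which encodes the repressor closest to ERF, had -0.22 (SE 0.0987) and -0.15 (SE 0.0984). The most abundant by CPM, Ets1 and Elf1, had 0.01 and -0.03 at 24 h and 0.07 and 0.03 at 0 h. Over time 5 of the 12 rose and 4 fell, while Erf itself did not pass.

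The 5 death effector domain genes had medians of -0.04 at 24 h and 0.12 at 0 h. Dedd, the paralog of Dedd2, had 0.05 and 0.06, and the initiator caspase gene Casp8 had 0.21 and 0.17. On stimulation Dedd rose (log2 0.36, SE 0.112, edgeR QL, BH-adjusted p = 0.00559), where Dedd2 fell, and in the list 2 rose and 3 fell. The 4 tested relatives of Gramd1a had medians of 0.18 at 24 h and 0.12 at 0 h, with Gramd1b, which encodes Aster-B, at 0.17 and 0.22 and Gramd3 at 0.20 and -0.05. Gramd1b rose on stimulation (log2 2.48, SE 0.0686, edgeR QL, BH-adjusted p = 2.14e-31), where Gramd1a fell, and Gramd3 was the 1 of the 4 that fell.

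The 15 other zinc finger genes listed for chromosome 7 had medians of 0.04 at 24 h and 0.17 at 0 h. Of these, Zfp60 lies on the other side of Sirt2 and the rest in the cluster that holds Zfp82. Zfp14 and Zfp566, the tested genes on either side of Zfp82, had 0.42 and -0.59 at 24 h and 0.84 and -0.22 at 0 h. Zfp260 and Zfp84, the most abundant by CPM, had 0.27 and 0.11 at 24 h and 0.17 and 0.06 at 0 h. Over time 5 of the 15 rose and 0 fell. Of the immunoglobulin superfamily genes near Igsf23, 3 were tested, and Pvr, a ligand of the receptors DNAM-1 and TIGIT, had 0.16 at 24 h and 0.06 at 0 h. The medians of the 3 were -0.04 at 24 h and 0.06 at 0 h, and over time 1 rose and 2 fell.

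The genes whose log2 CPM was most like that of each of the 9 over the 12 libraries were partly other genotype-linked genes. Sirt2 came first for Erf (Pearson r = 0.948) and for Pepd (r = 0.917), and second for Gm19897 (r = 0.905). The next for Erf was Sbsn, also on chromosome 7 (r = 0.88), and the next for Pepd was Arc (r = 0.906). Fbxo17 was the most like Gm10640 (r = 0.908), followed by Ttyh3 (r = 0.903). For Gm19897 Erdr1 came first (r = 0.931). Genes that also fell with time led for Gramd1a, with Ifi203 (r = 0.983) and Rhob (r = 0.981), for Igsf23, with Slc43a2 (r = 0.975) and Pde2a (r = 0.973), and for Dedd2, with Cxxc1 (r = 0.964) and Ttn (r = 0.962). Dnajc12 (r = 0.911) and Mbd2 (r = 0.905) were nearest to D930028M14Rik, and Rps6 and Ints3 to Zfp82 (r = 0.861 each). These correlations are the highest of 10980 per gene over libraries that share genotype, time and depth, and are a description.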

How the data were processed

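RNA of 12 libraries was sequenced, and the authors deposited read counts per gene symbol, 1 table per library. Per the labels' protocols, libraries were made with a NuGEN Ovation kit from 100 ng of RNA. The submitters' processing notes name STAR 2.6.0c, DESeq and hg19, although the symbols are those of mouse genes. The build and strand setting are therefore uncertain, and coordinates of the count tables are not given. Rows that name no gene were left out. Of all counts, with those rows included, no feature held 22.8% to 35.4%, not unique 25.7% to 30.9% and ambiguous 0.412% to 0.576%. Counts were filtered with edgeR 4.0.16 (minimum count 10, minimum total 15; 10981 genes kept), scaled by TMM, and fitted with 4 groups by robust quasi-likelihood, with Benjamini-Hochberg adjustment over all genes, limma 3.58.1 and R 4.3.3. DESeq2 1.42.0, RLE scaling, no filter, 2-group fits, a replicate block and each left-out library were alternatives. The script was tested on simulated data. RefSeq held 21692 of the symbols as such and 1605 more as synonyms, and 182 found no match. The rule that chose the genes names 9 of them. The genes and the lists were chosen with earlier results of these data known. Named genes are the 9, Sirt2, neighbours and list genes that passed or were next to one of the 9 or most abundant, and the 2 genes most correlated with each. Other genes named for a comparison were chosen after their values were seen. Replicates of a group differed by more than counting noise (chi-square per gene 3.23 to 15.5). Single genes of the lists or of chromosome 7 that are not named are not reported here.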

Additional observations from a re-analysis of the deposited data

How the results depend on the processing

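The 9 genes kept their direction between KO and WT at both times under every alternative run, and 7 or 8 passed at 24 h and 6 or 7 at 0 h when all libraries were used. As the genotype contrasts chose the genes, these counts describe the choice too. Dedd2 also passed at 24 h with DESeq2 (adjusted p = 0.0446), and Gramd1a at 0 h with DESeq2 (0.0238) and with no filter (0.0322). Over all genes, the 0 h count was 38, against 59 with no filter and 24 with only the 2 groups compared. The interaction count was 1, against 3 with no filter, 0 with RLE scaling and 0 with the replicate block. On chromosomes other than 7, the count of 37 became 64 with no filter and 57 with DESeq2, both tried after seeing the data. The cause was not tested. Changes with time near 0 turned sign, for Erf to 0.02 and for Gm10640 to 0.01 with no filter, and for Gm10640 to 0.06 with the replicate block. Deviations of same-numbered libraries from their group means had correlations of -0.0499 to 0.0837 in 12 pairs. With 3 libraries per group such values do not settle whether the numbers pair libraries, and the main fit used no pairing. The block left 7 of the 9 genes at 24 h and 6 at 0 h, with 28 and 32 genes called in all. Leaving out 1 library gave 3 to 7 of the 9 genes at 24 h, 4 to 7 at 0 h and 4 or 5 over time. Over all genes it gave 14 to 36 at 24 h, 17 to 42 at 0 h, 0 to 1 for the interaction and 5631 to 5896 over time. From Igsf23 to Pepd it gave 13 to 16 genes, on chromosome 7 in all 16 to 20, and on other chromosomes 17 to 41. The log2 change with time ranged from -0.07 to 0.08 for Erf, from -0.10 to 0.24 for Zfp82 and from -0.17 to 0.29 for Gm10640. The genotype difference at 24 h minus that at 0 h ranged from -0.38 to 0.56 for Gm10640 and from 0.17 to 0.58 for Igsf23. Depth limits Zfp82, D930028M14Rik, Gm10640 and Gm19897, each with libraries under 20 reads.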
